A study of Mus musculus with 9 samples.

Results

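The Cep genes are named for centrosomal proteins, with a number that stands for the mass of the protein. The set described here held every gene of the deposited table whose symbol is Cep followed by a number, with or without l1, apart from 4 (Cep63, Cep135, Cep152 and Cep290). It comprised 25 genes of the 38195 symbols in the table. The rule uses names and no measured value, though it was drawn up with earlier results of these data known. All 25 passed the filter on low values, which kept 14004 genes. Cep110 is the older symbol of centriolin, which the reference calls Cntrl.

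Embryonic hypothalamus was taken from outbred CD-1 mice at E12.5, the stage counted in days of gestation. Slices of the embryonic brain were microdissected into 3 zones, with 3 libraries from each. The ventricular zone (VZ in the labels) lines the ventricle, and the medial and lateral mantle zones (mMZ and lMZ) lie outside it at increasing distance. No genotype or treatment separated the groups, and the zones were cut by position, so each library mixes cell types. The labels do not say if each library had its own embryos or litter. The p-values therefore measure spread among the 9 libraries, and that spread can be partly technical. Values are FPKM, fragment numbers scaled to transcript length and to library size, and tests used limma on log2(FPKM + 1) over all genes, with adjusted p-values by Benjamini-Hochberg.

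The centrosome is a pair of centrioles within a shell of pericentriolar material that nucleates microtubules. Centrioles are copied once per cell cycle, and each centrosome then forms a pole of the mitotic spindle. The older (mother) centriole carries distal and subdistal appendages, which dock it at the membrane and anchor microtubules, and it can become the basal body of the primary cilium. In ventricular zone progenitors of the embryonic brain the centrosome sits at the ventricular surface and bears a cilium, and neurons that have left the cycle keep a centrosome. The Cep proteins are a collection by location rather than one sequence family, and serve in centriole assembly, appendages, the pericentriolar material, the linker that holds 2 centrosomes together, satellites around the centrosome, the cilium, and the midbody between dividing cells.

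VZ replicate 3 and mMZ replicate 3 were shallow, and both enter the comparisons below. From the size of the steps between low values, the implied depth was 261049 fragments in VZ replicate 3 and 537145 in mMZ replicate 3, against 4414048 to 8817318 in the other 7. By the same measure the 25 Cep genes rested on a median of 16.3 fragments each in VZ replicate 3 (2.0 to 82.8) and 23.1 in mMZ replicate 3, against 135 to 326 in the others. VZ replicate 3 was the highest library for 13 of the 25 genes (52.0%, against 32.1% of all genes tested), and mMZ replicate 3 for 7 more. Results for the Cep genes are therefore also given without both, but not those for the other gene lists. None of the 25 genes was listed at 0 in any library. The 10 progenitor markers summed to 967 to 2080 FPKM in VZ, 935 to 1120 in mMZ and 87.5 to 123 in lMZ. The summed level of 20 mitosis genes was 380 to 1230 FPKM in VZ, 262 to 588 in mMZ and 21.3 to 40.0 in lMZ, and that of 11 neuronal genes was 594 to 1380, 1320 to 1550 and 1860 to 2160 FPKM. All 10 hypothalamic markers passed the filter, at sums of 432 to 474, 527 to 650 and 240 to 602 FPKM. Among other cell types, the sums in VZ, mMZ and lMZ were 1890 to 2050, 1340 to 2450 and 224 to 541 FPKM for 7 red cell genes, 37.8 to 53.5, 25.8 to 36.3 and 6.08 to 13.0 for 6 pericyte genes, and 12.2 to 20.0, 12.6 to 25.8 and 35.5 to 48.3 for 7 microglia genes. They were 5.99 to 39.9, 21.1 to 51.1 and 12.4 to 38.8 FPKM for 7 endothelial genes and 13.1 to 28.7, 25 to 31.6 and 2.84 to 5.87 for 7 meningeal genes. For 6 genes of multiciliated and choroid plexus cells they were 8.96 to 18.2, 7.58 to 12.1 and 4.70 to 5.77 FPKM, with the multiciliated cell regulator Mcidas listed at 0 throughout. The part of these cell types in the results below was not tested.

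Because FPKM is scaled by transcript length, levels can be set roughly side by side between genes. The program that computed FPKM is not given, and the means below include the shallow libraries. Averaged over the 9 libraries, the Cep genes spanned from 46.6 FPKM (Cep170) to 2.31 FPKM (Cep128), with a median of 10.2 FPKM beside 10.6 for all genes tested. Cep170, a subdistal appendage protein that binds microtubules, stood well above the next gene, Cep120 (19.8 FPKM), and was at the 87.0th percentile of tested genes. Cep78, Cep68, Cep89, Cep57, Cep70 and Cep110 followed at 16.1, 14.9, 14.0, 13.6, 13.0 and 13.0 FPKM. At the low end, above Cep128, were Cep57l1 (2.75 FPKM), Cep72 (3.55), Cep76 (4.28) and Cep192 (4.76). Neighbours in this order overlapped in their library values, apart from Cep170, whose lowest library (32.4 FPKM) was above the highest of Cep120 (23.4 FPKM).

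**Figure D1:**
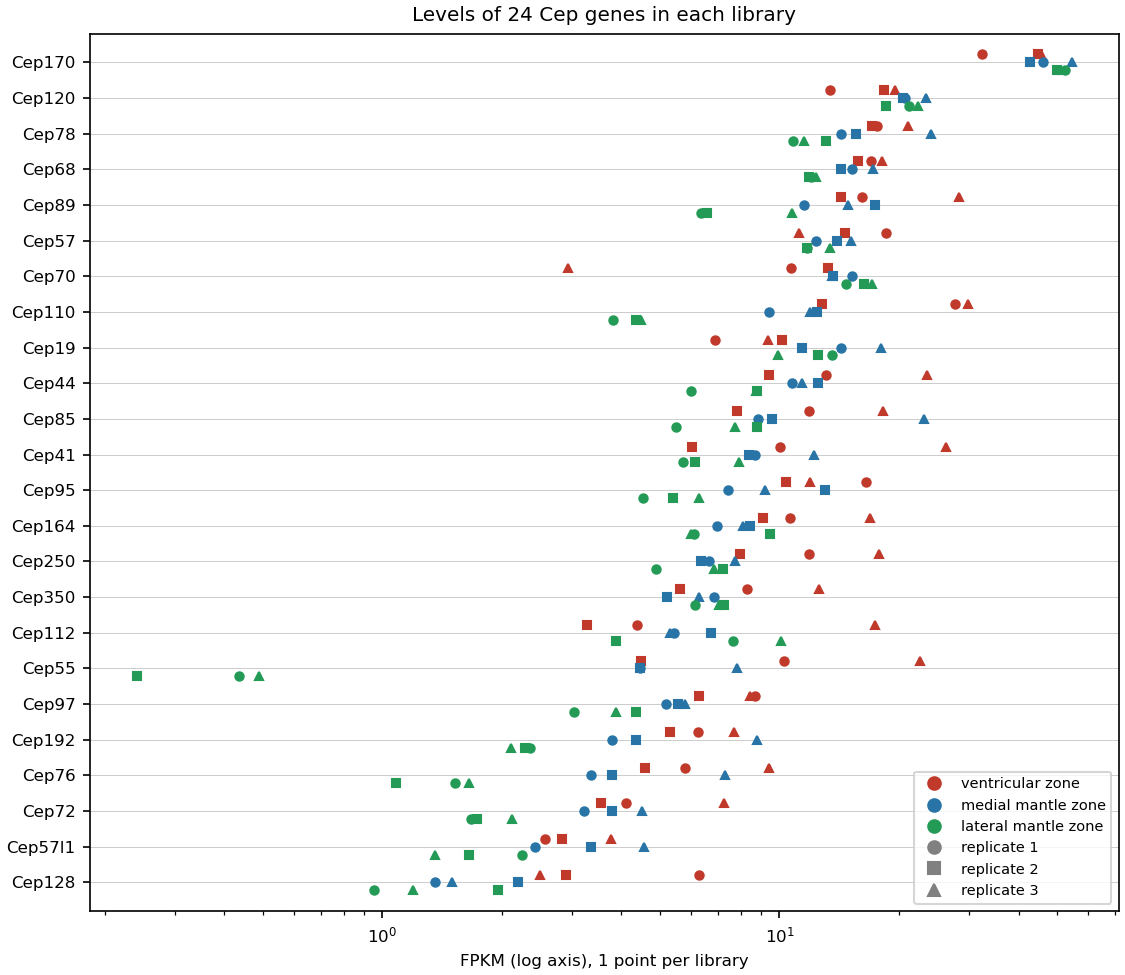
Level of 24 of the Cep genes in FPKM (log axis), 1 point per library, with the zone in colour and the replicate number as the symbol, ordered by the mean over 9 libraries. Cep170 lies to the right of all others, Cep55 has the widest spread, with its lateral mantle points below 1 FPKM, and the replicate 3 triangles of the ventricular zone are often the highest point of a row.

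Between the ventricular and the lateral mantle zone, 8 of the 25 Cep genes were higher in VZ and 0 were lower (limma, adjusted p below 0.05). Of all 14004 genes, 19.6% passed in either direction, 10.7% higher and 8.93% lower in VZ. The 8 were Cep55, Cep110, Cep76, Cep89, Cep192, Cep95, Cep72 and Cep97, and their log2 differences ran from 3.03 to 0.89. All 3 VZ libraries lay above all 3 lMZ libraries in 15 of the 25 genes and below them in 2 (Cep170 and Cep70), against 25.2% and 19.9% of all genes tested (17 of 25 and 45.1% in either direction). The median log2 difference of the 25 was 0.77, beside 0.05 for all genes tested, and 20 of the 25 were above 0. Without both shallow libraries the median was 0.44 and 10 genes passed, the 8 together with Cep128 and Cep78, while the share of all genes went from 19.6% to 28.1% and their median was 0.05. In bulk tissue, fewer cells of a type and less RNA per cell cannot be told apart.

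The count was sensitive to single libraries. It was 3 without VZ replicate 1, 13 without VZ replicate 2, 5 without mMZ replicate 2, and 2, 2 and 4 without lMZ replicate 1, 2 and 3. The share of all genes that passed moved too. In the same order it was 8.56%, 28.3%, 14.5%, 6.85%, 7.29% and 8.93%, against 19.6% with all libraries. Cep55 and Cep110 passed with each library left out. Among the genes added without VZ replicate 2 were Cep250, Cep41 and Cep44, higher in VZ (limma adjusted p = 0.0202, 0.0453 and 0.0248), and Cep70, which was lower (0.0368). These were the lowest values of each over all settings, and the highest were 0.233, 0.605, 0.268 and 0.252. The fit without VZ replicate 2 kept the shallow replicate 3, the highest library of Cep250, Cep41 and Cep44 and the lowest of Cep70. Without both shallow libraries Cep250, Cep41 and Cep44 did not pass (limma adjusted p = 0.0983, 0.495 and 0.139), nor did Cep70.

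The 25 genes are spread over 14 chromosomes, with no more than 3 on any one. RefSeq promoters of GRCm38.p6, 250 bases before to 50 after a start site, were found for 20 of them. Those without one included Cep76, Cep120, Cep192 and Cep350. The 20 were rich in G and C, with a median of 62.3% and 23.0 CG dinucleotides per 300 bases, beside 52.7% and 7.0 for 27025 genes. Letters of motifs tied to the cell cycle and to cilia were searched on both strands. TTCCCGC, an E2F-type sequence, was in 8 of the 20 (40.0%, and 4.66% of all promoters), and TTTGAA, the core of the cell cycle genes homology region, in 6 (30.0% and 18.1%). CCAAT was in 9 (45.0% and 37.9%) and GTTGCCA, part of the site of RFX factors, in 3 (4.46% of all promoters). TTCGAA, a variant of that core, was in 0 of the 20 (1.57% of all promoters). The other E2F-type letters searched were TTGGCGC, in 0 (2.54%), and the variant with the letters TTCGCGC, in 0 (1.59%). TTCCCGC was in Cep110, Cep112, Cep128, Cep170, Cep41, Cep44, Cep57 and Cep70, of which Cep110 was higher in VZ than in lMZ. A match is a string of letters and no measured binding site. The comparison set was all 27025 promoters, which hold less G and C than the 20 and are not limited to genes tested. Whether the shares differ from those of promoters with like G and C was not tested.

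The 250 bases before the start of the 4 genes with the largest difference between VZ and lMZ and a promoter in the reference are shown so that these letters can be read in place, on the plus strand, which is the strand of all 4 genes. They are chr19:38054734-38054983 for Cep55, chr2:35109242-35109491 for Cep110, chr7:35396813-35397062 for Cep89 and chr11:106789002-106789251 for Cep95, and capitals mark the searched motifs on either strand.
Cep55: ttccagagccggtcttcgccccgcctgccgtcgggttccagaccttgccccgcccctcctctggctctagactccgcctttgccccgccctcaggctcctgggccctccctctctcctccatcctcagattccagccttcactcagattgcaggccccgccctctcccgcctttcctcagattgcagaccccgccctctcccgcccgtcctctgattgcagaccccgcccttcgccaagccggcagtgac
Cep110: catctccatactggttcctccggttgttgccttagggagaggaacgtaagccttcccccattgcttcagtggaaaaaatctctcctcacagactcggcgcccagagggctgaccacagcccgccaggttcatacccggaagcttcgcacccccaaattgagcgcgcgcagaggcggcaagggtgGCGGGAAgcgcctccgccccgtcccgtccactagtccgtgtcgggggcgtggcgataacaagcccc
Cep89: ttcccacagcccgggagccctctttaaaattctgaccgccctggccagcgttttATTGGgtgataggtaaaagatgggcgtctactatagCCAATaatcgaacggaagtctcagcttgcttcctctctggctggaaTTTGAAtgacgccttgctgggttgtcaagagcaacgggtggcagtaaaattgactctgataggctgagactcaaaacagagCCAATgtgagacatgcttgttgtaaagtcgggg
Cep95: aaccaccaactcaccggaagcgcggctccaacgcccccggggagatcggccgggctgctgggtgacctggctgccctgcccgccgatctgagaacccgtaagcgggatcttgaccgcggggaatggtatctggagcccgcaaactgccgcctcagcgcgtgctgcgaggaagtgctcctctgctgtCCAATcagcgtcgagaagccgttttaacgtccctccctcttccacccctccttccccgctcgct
Cep55 has none of the motifs in this stretch, and its TTTGAA is at position 25 relative to the RefSeq start site, on the opposite strand. Positions here are relative to RefSeq start sites. For Cep55 and Cep89 these differ from the starts of the gene spans given below (38055011 and 35397035). Cep110 has TTCCCGC on the opposite strand from position -66. Cep89 has CCAAT at -196 (opposite strand), -160 and -33 and TTTGAA at -114, and Cep95 has CCAAT at -64. The 4 genes have no motif of the search in common.

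Cep55, a midbody protein that recruits the machinery for the final cut between daughter cells, had the largest difference of the set. The gene spans 38055011 to 38074423 (plus strand) of chromosome 19 in GRCm38, the build of all spans given here. Its level was 10.3, 4.47 and 22.6 FPKM in VZ replicates 1 to 3, 4.46, 4.46 and 7.83 FPKM in mMZ, and 0.434, 0.241 and 0.490 FPKM in lMZ. The lMZ libraries were all below 1 FPKM and none of the other 6 was near them, while VZ and mMZ overlapped. VZ exceeded lMZ by 3.03 ± 0.48 on the log2(FPKM + 1) scale (SE; limma adjusted p = 0.00399), and by 2.51 ± 0.31 without the shallow libraries (adjusted p = 0.00191). Over all settings the adjusted p was 0.000547 to 0.0211. The ratio of mean FPKM in VZ to that in lMZ was 32.1, and 19.0 without the shallow VZ replicate 3, where the level rested on about 16.3 fragments. Adding 1 before the logarithm compresses differences between values below 1 FPKM. The lMZ values rested on about 8.0, 4.6 and 6.0 fragments, so both ends of that ratio are imprecise. In the list of mitosis genes, 20 of 20 were higher in VZ than in lMZ (10.7% of all genes tested), with a median log2 difference of 3.33. Whether dividing cells carry any part of the Cep55 difference was not tested.

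Among genes of the mother centriole's appendages, 2 of 6 were higher in VZ than in lMZ, Cep110 and Cep89. Cep110 (Cntrl, chromosome 2 from 35109492 to 35178822, plus strand), a subdistal appendage protein that also acts at the midbody, was 27.7, 12.8 and 29.9 FPKM in VZ, 9.43, 12.4 and 11.9 FPKM in mMZ, and 3.82, 4.34 and 4.48 FPKM in lMZ. The 3 zones did not overlap in any pairing, and VZ replicate 2 was close to the mMZ libraries. The log2 difference between VZ and lMZ was 2.15 ± 0.31 (limma adjusted p = 0.00265, with 0.000255 to 0.0167 over all settings). Without the shallow libraries it was 1.93 ± 0.30 (limma adjusted p = 0.0044). The ratio of means was 5.57, and 4.81 without the shallow VZ replicate 3. Cep89, a distal appendage protein needed to dock the cilium (chromosome 7 from 35397035 to 35438689, plus strand), was 16.2, 14.3 and 28.3 FPKM in VZ, 11.5, 17.4 and 14.9 FPKM in mMZ, and 6.35, 6.58 and 10.8 FPKM in lMZ. Its VZ and mMZ libraries overlapped, and lMZ lay below both. VZ exceeded lMZ by 1.18 ± 0.31 (limma adjusted p = 0.027). Cep89 did not pass without VZ replicate 1 (adjusted p = 0.0588), without lMZ replicate 1 or 2 (0.103 and 0.099) or with only VZ and lMZ in the fit (0.057), within 0.0156 to 0.103 over all settings.

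The other 4 appendage genes differed in direction and did not pass. Cep128 and Cep164, of the subdistal and distal appendages, had log2 differences of 0.99 ± 0.36 and 0.67 ± 0.28 (limma adjusted p = 0.0779 and 0.122). Cep128 passed without VZ replicate 3 (adjusted p = 0.0462), with 0.0317 to 0.223 over all settings. Cep170 (chromosome 1 from 176733653 to 176814067, minus strand) was 32.4, 44.7 and 45.5 FPKM in VZ, 46.1, 42.9 and 54.5 FPKM in mMZ, and 52.4, 50.1 and 50.5 FPKM in lMZ. Its lMZ libraries were close together and above all 3 of VZ, while mMZ overlapped both. That difference was -0.33 ± 0.17, with a 95% interval of -0.71 to 0.06 (limma adjusted p = 0.203). Cep170 passed as lower in VZ under trimmed mean scaling (-0.46, adjusted p = 0.0473, with 0.0473 to 0.469 over all settings), but not when the log ratios in that scaling were weighted by level (-0.45, adjusted p = 0.05002). Cep19, which brings a transport regulator to the base of the cilium, had zone means of 8.79 ± 1.70, 14.6 ± 3.32 and 12.0 ± 1.87 FPKM (SD, n = 3; VZ, mMZ, lMZ), and its interval for VZ against lMZ was -0.96 to 0.14.

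**Figure D2:**
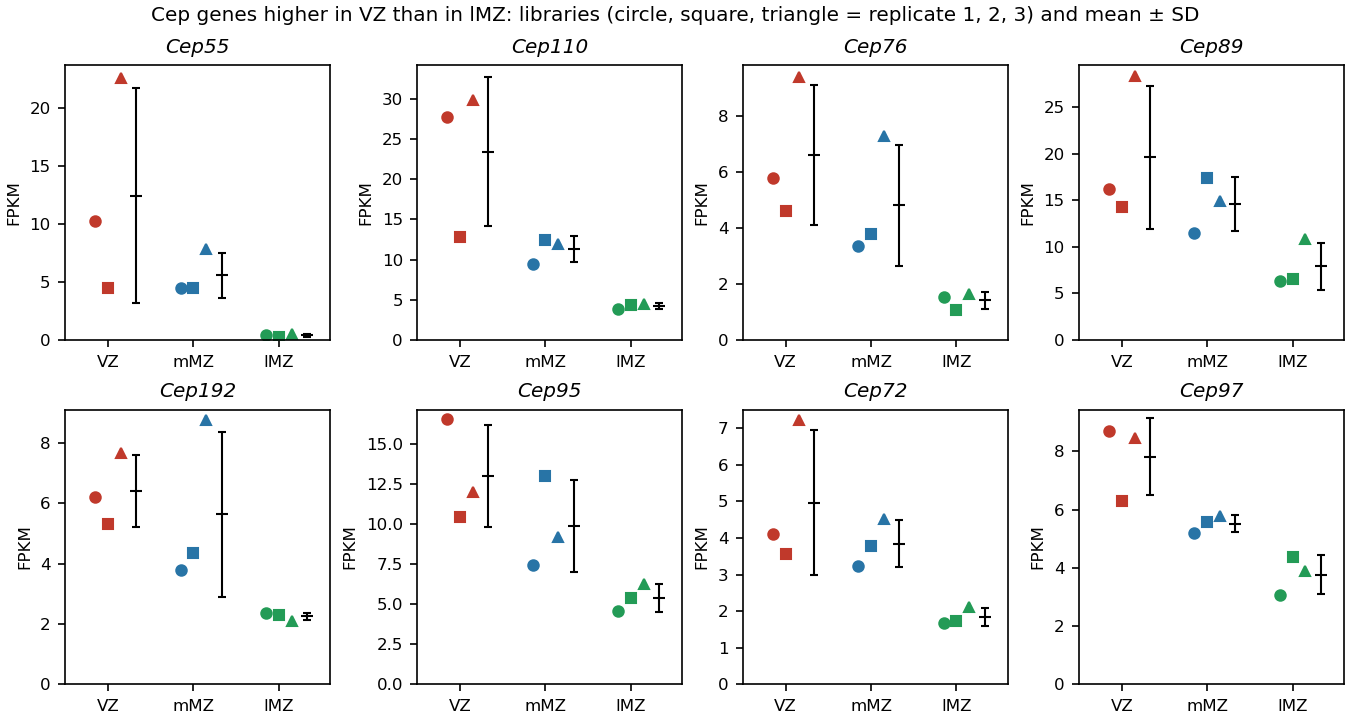
FPKM of the 8 Cep genes that were higher in the ventricular zone (VZ) than in the lateral mantle zone (lMZ), with the medial mantle zone (mMZ) between them; circles, squares and triangles are replicates 1, 2 and 3, and the black bar is the mean ± SD of 3 libraries. In all 8 panels the lMZ points lie below every VZ point, and in Cep55 they lie near 0.

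Of 8 genes of centriole assembly and length, 3 were higher in VZ than in lMZ (Cep76, Cep192 and Cep97) and 5 did not pass. Cep76, which limits centriole copying to 1 round per cycle, was 5.80, 4.59 and 9.40 FPKM in VZ, 3.35, 3.79 and 7.30 FPKM in mMZ, and 1.52, 1.08 and 1.65 FPKM in lMZ. The lMZ libraries stood apart from the other 6. VZ exceeded lMZ by 1.61 ± 0.35 (limma adjusted p = 0.0146), but not past the threshold without lMZ replicate 1 or 2 (adjusted p = 0.0551 and 0.0635, within 0.00487 to 0.0635 over all settings). The Cep76 value in VZ replicate 3 rested on about 8.8 fragments. Without both shallow libraries the difference was 1.36 ± 0.22 (adjusted p = 0.00487). Cep192, a scaffold of the pericentriolar material that also brings in the kinase that starts centriole copying, was 6.22, 5.32 and 7.68 FPKM in VZ, 3.78, 4.35 and 8.78 FPKM in mMZ, and 2.35, 2.29 and 2.11 FPKM in lMZ. Its lMZ libraries agreed closely, and its highest value was in the shallow mMZ replicate 3. The log2 difference between VZ and lMZ was 1.18 ± 0.32 (limma adjusted p = 0.0313). It was lost without VZ replicate 1 or 3 (adjusted p = 0.0789 and 0.0545), mMZ replicate 2 (0.0503) or lMZ replicate 1, 2 or 3 (0.0952, 0.0951 and 0.0959), and with no filter on low values (0.0648). Without both shallow libraries the adjusted p was 0.00743, the lowest of a range of 0.00743 to 0.0959.

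Cep97, which with its partner Ccp110 caps the distal end of centrioles, was 8.70, 6.29 and 8.44 FPKM in VZ, 5.19, 5.57 and 5.78 FPKM in mMZ, and 3.05, 4.36 and 3.88 FPKM in lMZ. The zones did not overlap in any pairing, and the steps between them were small. VZ exceeded lMZ by 0.89 ± 0.25 (limma adjusted p = 0.0338, with 0.0213 to 0.134 over all settings). Cep97 was lost without VZ replicate 1 (adjusted p = 0.1), mMZ replicate 1 or 2 (0.0595 and 0.0611) or lMZ replicate 1, 2 or 3 (0.134, 0.0785 and 0.0946), and with quantile normalization (0.0513), no filter (0.0572) or only VZ and lMZ in the fit (0.0713). Cep76 and Cep192 lie on chromosome 18 (67617800 to 67641336, minus strand, and 67800107 to 67885170, plus strand), 159 kb apart, and Cep97 is on chromosome 16 from 55899888 to 55934855 on the minus strand.

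Cep120, a protein of centriole elongation on the same chromosome as Cep76, did not pass. It was 13.4, 18.3 and 19.6 FPKM in VZ, 20.8, 20.4 and 23.4 FPKM in mMZ, and 21.2, 18.5 and 22.3 FPKM in lMZ. All VZ values were below all mMZ values, and VZ overlapped lMZ. Its difference between VZ and lMZ was -0.28 ± 0.19, with a 95% interval of -0.71 to 0.15. Cep44, which helps new centrioles become centrosomes, and Cep78, which acts at the distal centriole, had all VZ libraries above all lMZ libraries but did not pass (0.81 ± 0.31 and 0.61 ± 0.23, limma adjusted p = 0.095 and 0.0869). Cep78 passed without mMZ replicate 3 (adjusted p = 0.0404, with 0.0324 to 0.225 over all settings). Cep85, a regulator of centriole duplication, and Cep350, a microtubule anchoring protein, had intervals of -0.24 to 1.56 and -0.38 to 0.92.

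None of the 5 genes of the pericentriolar material and centrosome linker passed between VZ and lMZ. Cep68, a linker protein (chromosome 11 from 20227037 to 20249429, minus strand), was 17.0, 15.8 and 18.1 FPKM in VZ, 15.2, 14.3 and 17.2 FPKM in mMZ, and 12.0, 11.9 and 12.3 FPKM in lMZ. Its libraries lay close together within each zone, and lMZ lay below the other 6. The difference between VZ and lMZ was 0.46 ± 0.17, or 0.07 to 0.85 as a 95% interval (limma adjusted p = 0.0913). Cep250, the protein that roots the linker on the centriole, had a difference of 0.84 ± 0.30 (limma adjusted p = 0.0777). Cep57 and its paralog Cep57l1, which hold the pericentriolar material and paired centrioles together, had differences of 0.23 ± 0.22 and 0.56 ± 0.30.

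Cep70, a binding partner of gamma-tubulin, had the lowest difference of the 25, at -0.97 ± 0.41 (limma adjusted p = 0.125). It was 10.7, 13.3 and 2.94 FPKM in VZ, 15.2, 13.6 and 13.6 FPKM in mMZ, and 14.7, 16.3 and 17.1 FPKM in lMZ, and it was chosen for display after its values were seen. The 2.94 FPKM of VZ replicate 3 rested on about 2.0 fragments. Without the shallow libraries the difference was -0.40 ± 0.16 (adjusted p = 0.0901). Without VZ replicate 2 it passed (adjusted p = 0.0368), with 0.0368 to 0.252 over all settings.

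Of the 3 genes tied to satellites and the cilium, Cep72 was higher in VZ than in lMZ. Cep72 encodes a satellite protein (chromosome 13 from 74036500 to 74062299, minus strand) and was 4.10, 3.56 and 7.24 FPKM in VZ, 3.22, 3.79 and 4.52 FPKM in mMZ, and 1.67, 1.73 and 2.12 FPKM in lMZ. VZ and mMZ overlapped, and lMZ lay below both. The difference was 1.02 ± 0.30 (limma adjusted p = 0.0414, with 0.0258 to 0.133 over all settings). Cep72 was lost without VZ replicate 1 or 3 (adjusted p = 0.0771 and 0.0609), mMZ replicate 1 or 2 (0.0653 and 0.0704) or lMZ replicate 1, 2 or 3 (0.133, 0.125 and 0.0948), and with no filter (0.0865) or only VZ and lMZ in the fit (0.0796), while without both shallow libraries it was 0.77 ± 0.20 (adjusted p = 0.0269).

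Cep41, which is needed for tubulin modification in cilia, was 10.1, 6.03 and 26.3 FPKM in VZ, 8.70, 8.38 and 12.2 FPKM in mMZ, and 5.72, 6.12 and 7.89 FPKM in lMZ. VZ replicate 3, a shallow library, was far above the other 8, and VZ overlapped lMZ. Its difference between VZ and lMZ was 0.77 ± 0.44 (limma adjusted p = 0.231), and 0.23 ± 0.24 without the shallow libraries (adjusted p = 0.495, with 0.0453 to 0.605 over all settings).

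Cep95 and Cep112 are centrosomal proteins with less known roles. Cep95 (chromosome 11 from 106789252 to 106819930, plus strand) was 16.5, 10.4 and 12.0 FPKM in VZ, 7.41, 13.0 and 9.20 FPKM in mMZ, and 4.53, 5.39 and 6.26 FPKM in lMZ. All lMZ libraries were below the other 6, and VZ and mMZ overlapped. It was higher in VZ than in lMZ by 1.11 ± 0.27 (limma adjusted p = 0.0227), and by 1.15 ± 0.28 without the shallow libraries. The call was lost without VZ replicate 1 (adjusted p = 0.0785) or lMZ replicate 1, 2 or 3 (0.0906, 0.0745 and 0.0523), within 0.0156 to 0.0906 over all settings. Cep112 varied most in VZ, at 4.39, 3.28 and 17.4 FPKM, and its difference of -0.05 ± 0.52 between VZ and lMZ was -0.69 ± 0.34 without the shallow libraries (adjusted p = 0.157).

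**Figure D3:**
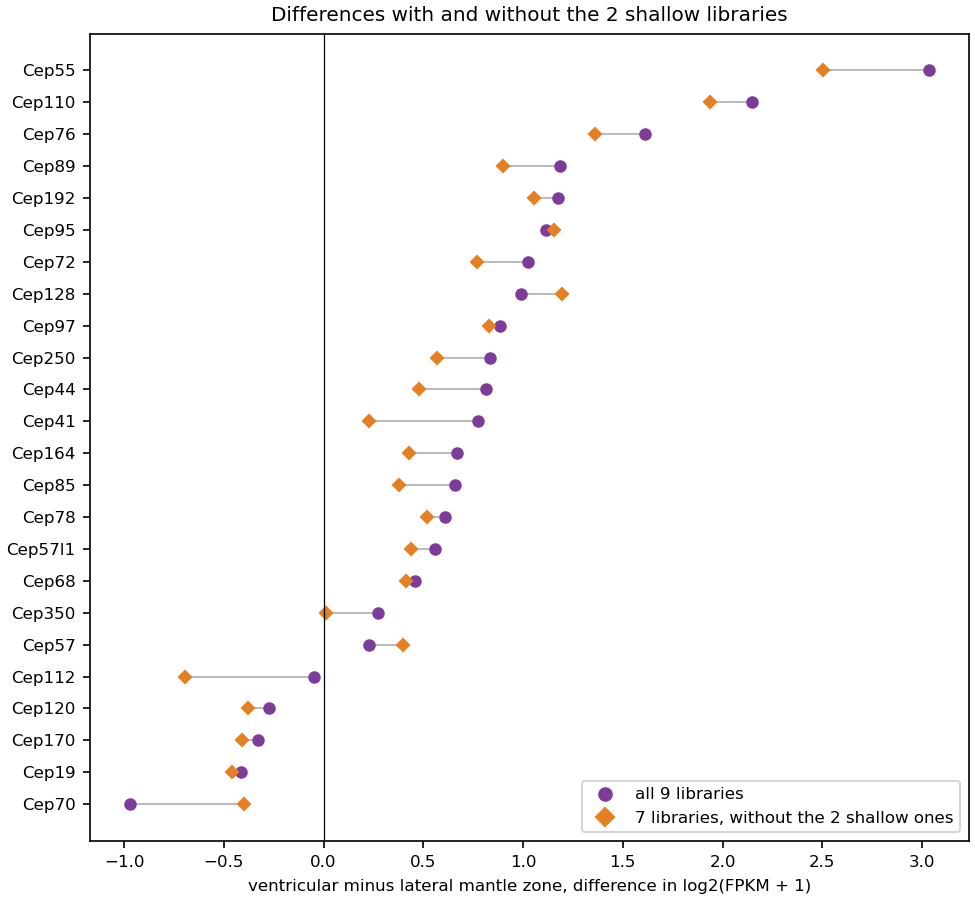
Difference between the ventricular and lateral mantle zones in log2(FPKM + 1) for 24 of the Cep genes, with all 9 libraries (circles) and with the 7 deep ones (diamonds). Most points above 0 lie closer to 0 without the shallow libraries, as in Cep55 (3.03 and 2.51) and Cep41 (0.77 and 0.23), while Cep95, Cep128 and Cep57 lie farther from it.

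Between the ventricular and medial mantle zones, 0 of the 25 Cep genes passed by limma. An unadjusted limma p below 0.05 was found for 4 of them (16.0%, against 11.9% of all genes tested). They were Cep110, Cep250 and Cep128, with higher values in VZ, and Cep19, with lower values. No gene of the 14004 passed (0.0%), though 571 did without VZ replicate 2, and 1661 had an unadjusted p below 0.05 with all libraries. The median log2 difference of the Cep genes was 0.28, beside -0.05 for all genes, and it was 0.14 without the shallow libraries. All VZ libraries were above all mMZ libraries in 5 Cep genes and below them in 3, against 5.36% and 9.30% of all genes (8 of 25 and 14.7% in either direction). Cep110 had the highest difference, 0.92 ± 0.31 (limma adjusted p = 0.393), and passed without VZ replicate 2 (1.29 ± 0.23, adjusted p = 0.0224, within 0.0224 to 0.702 over all settings). For Cep55 the difference was 0.82 ± 0.48, with a 95% interval of -0.26 to 1.90. For Cep76, Cep192, Cep72, Cep89, Cep95 and Cep97 it was 0.22 to 0.43, and none of these intervals excluded 0.

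Between the medial and lateral mantle zones, 1 of the 25 Cep genes was higher in mMZ, Cep55, and 0 were lower. Of all genes, 4.12% passed, 3.58% higher and 0.543% lower in mMZ, or 501 and 76 genes, which became 527 and 264 under quantile normalization. All 3 mMZ libraries lay above all 3 lMZ libraries in 15 of the 25 genes and below them in 0, against 25.7% and 14.8% of all genes tested (40.4% in either direction). Cep55 was higher by 2.21 ± 0.48 (limma adjusted p = 0.0352), and by 1.98 ± 0.31 without the shallow libraries (adjusted p = 0.00867). It was lost without VZ replicate 1 (adjusted p = 0.061), mMZ replicate 1, 2 or 3 (0.081, 0.0935 and 0.125) or lMZ replicate 1, 2 or 3 (0.117, 0.143 and 0.0989) and with no filter (0.0813), and the range over all settings was 0.00428 to 0.143. Cep110 and Cep76 came next, at 1.23 ± 0.31 and 1.21 ± 0.35 (limma adjusted p = 0.0595 and 0.0931). Both passed without VZ replicate 3 (adjusted p = 0.0234 and 0.0306) and without both shallow libraries (0.0416 and 0.0326, where 11.9% of all genes passed), with only mMZ and lMZ in the fit (0.00883 and 0.039), and Cep110 also without VZ replicate 2 (0.0116), within 0.00883 to 0.199 and 0.0306 to 0.3 over all settings. The median of the 25 was 0.46, beside 0.10 for all genes. Without both shallow libraries it was 0.31, again beside 0.10 for all genes.

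**Figure D4:**
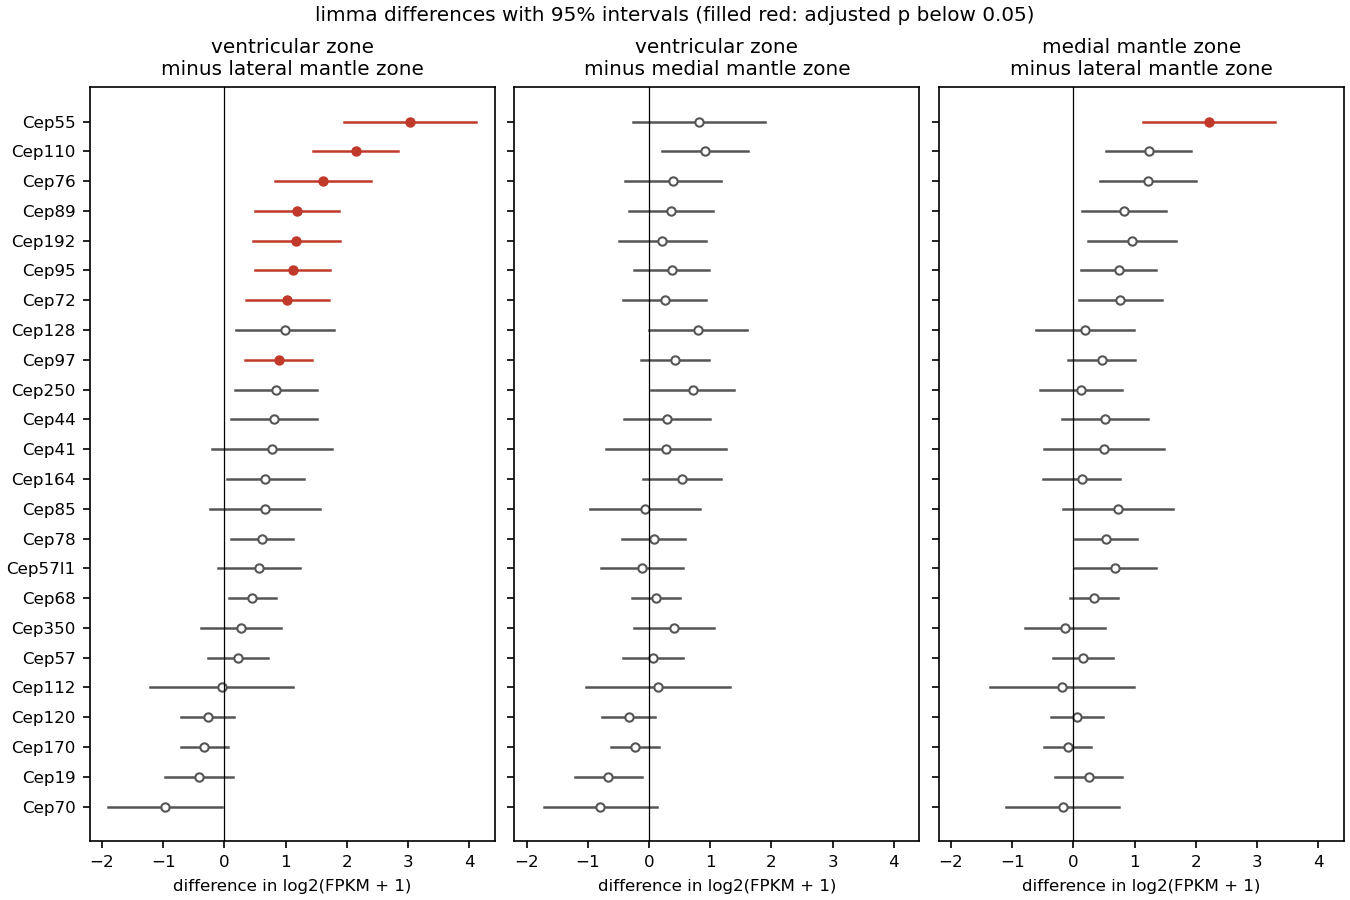
limma differences in log2(FPKM + 1) with 95% intervals for 24 of the Cep genes in the 3 comparisons of zones, in the order of the first panel; filled red points passed at an adjusted p below 0.05. The first panel holds 8 such genes, the middle panel 0, and the last 1, Cep55, and most other intervals in the middle panel span 0.

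Across the 3 zones, the mean was highest in VZ for 19 of the 25 genes (76.0%, against 38.7% of all genes tested). It was lowest in lMZ for 19 as well (76.0%, against 47.0%). These means include the shallow libraries, and the orders were not counted without them. Cep112 was highest in VZ only through VZ replicate 3 (17.4 FPKM). Its VZ replicates 1 and 2 (4.39 and 3.28 FPKM) were below its mMZ and lMZ means (5.81 and 7.19 FPKM). Without VZ replicate 3, 15 of the 25 genes had a log2 difference above 0 between VZ and mMZ, against 19 with all libraries. Cep41 (-0.27), Cep44 (-0.04) and Cep78 (-0.01) were then below 0, as was Cep112 (-0.50). For 17 genes (68.0%, against 30.8% of all genes tested) the means were in the order VZ, mMZ, lMZ, and for 2, Cep170 and Cep70, in the reverse order (8.0%, against 24.9%). Cep19, Cep120, Cep85 and Cep57l1 had their highest mean in mMZ. For Cep85 and Cep57l1 this rested on the shallow mMZ replicate 3 (23.1 and 4.56 FPKM). Without that library their log2 differences between VZ and mMZ were 0.35 and 0.06, against -0.07 and -0.12 with all libraries. The comparisons of zones share libraries, so the orders are not independent of the tests above.

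In 3 lists of other centrosome genes, those that passed between VZ and lMZ were higher in VZ. Of 18 genes of centriole assembly and duplication, 5 were higher in VZ and 0 lower, with a median log2 difference of 0.54 (10.7% higher, 8.93% lower and a median of 0.05 over all genes tested, for each of these lists). Stil, a duplication factor, was 8.49 ± 7.04 against 0.229 ± 0.034 FPKM (SD, n = 3), and Plk4, the kinase that starts duplication, was 16.3 ± 13.8 against 1.64 ± 0.117 FPKM. Of 15 genes of the pericentriolar material and the gamma-tubulin ring, 5 were higher and 0 lower, with a median of 0.23. The mitotic kinases Plk1 (3.30 on the log2 scale) and Aurka (2.79) led that list. Of 18 genes of appendages, linker and satellites, 6 were higher and 0 lower, with a median of 0.36, among them Nek2, a kinase that opens the linker, at 12.2 ± 7.29 against 0.791 ± 0.555 FPKM, and Ninl, a microtubule anchoring protein, at 17.5 ± 10.9 against 4.17 ± 1.57 FPKM. Ninl stands in the latter 2 lists, and the centriolin entry of the last was not counted, since the table holds that gene as Cep110. Between VZ and mMZ these lists had 0 genes called by limma, and between mMZ and lMZ they had 1 (Spice1), 2 (Plk1 and Aurka) and 0, all higher in mMZ. The counts, medians and means of these lists include the shallow libraries and were not computed without them.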

How the data were processed

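The authors deposited FPKM values, 1 per gene and library, from mRNA libraries read as 100 bp pairs, per the labels' protocols. Bowtie2 2.1.0 and mm10 are named in the submitters' processing notes (program for FPKM not given in the sources used here). Of 38370 rows, 42 were identical copies, and for symbols on several rows 133 rows with lower means were dropped. No Cep gene was affected.

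Genes reaching 1 FPKM in 3 or more libraries were fitted with limma 3.58.1 (R 4.3.3) on log2(FPKM + 1), 1 mean per zone over all 9 libraries, with an intensity trend. Tests were two-sided, with a threshold of 0.05 after Benjamini-Hochberg adjustment over 14004 genes. The fit was tested on simulated data with the same spread in all 9 libraries of a gene, so that test does not cover the shallow libraries. The scale understates differences of genes near or below 1 FPKM. Reads of genes on opposite strands may not be told apart: 6 Cep genes share exon bases with such a gene, up to 11.1% in Cep250.

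Depth was taken from the steps between low values in genes with 1 transcript of 1500 bp or more. Implied fragments of a gene use its longest GENCODE M21 transcript and are approximate. Values in all libraries are given for each Cep gene that passed and for the gene with the highest mean of each role group; others by counts or means, and Cep70, Cep41 and Cep112 were added after their values were seen. The Cep genes, role groups and lists were chosen with earlier results of these data known, and Cep110 was placed in its group after the table was read. Alternatives were another pseudocount, no filter, quantile normalization, unweighted trimmed mean scaling (30% of log ratios and 5% of mean levels trimmed at each end), fits of 2 zones, a replicate block and left-out libraries. Weighting the log ratios in the trimmed mean was added after seeing the data. No protein sequences were used here. The 25 Cep genes are all in the counts and medians, and 1 of them is not reported here by name.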

Additional observations from a re-analysis of the deposited data

How the results depend on the processing

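Over 17 alternatives, 57 of 75 results (25 Cep genes in 3 comparisons) kept their side of the threshold under each, and 0 changed direction while passing. Of the 57, only Cep55 and Cep110 between VZ and lMZ had passed in the fit reported above. The rest of the 57 had not passed there. Cep76, Cep89, Cep192, Cep95, Cep72 and Cep97 between VZ and lMZ were lost under at least 1 alternative, as was Cep55 between mMZ and lMZ. Between VZ and lMZ the 8 Cep genes passing became 5 with no filter on low values and 5 with only those zones in the fit, where all genes passing went from 2750 to 1684. Leaving out 1 library gave 2 to 13 Cep genes and 959 to 3958 of all genes (1199 without VZ replicate 1, and 959, 1021 and 1250 without lMZ replicates 1, 2 and 3). Between VZ and mMZ, quantile normalization gave 9 genes and 0 Cep genes, and leaving out 1 library gave 0 to 571 and 0 to 1, each upper value without VZ replicate 2. Between mMZ and lMZ, 577 genes and 1 Cep gene became 2027 and 3 with only those zones in the fit, 1666 and 3 without both shallow libraries, 0 Cep genes with no filter, and 207 to 1760 and 0 to 3 when 1 library was left out (1760 and 3 without VZ replicate 3, 889 and 2 without VZ replicate 2, 207 to 295 and 0 without any mMZ or lMZ library). The causes were not tested. Trimmed mean scaling moved the median of all genes between VZ and lMZ from 0.05 to -0.06 and that of the Cep genes from 0.77 to 0.65, and between mMZ and lMZ from 0.10 to -0.02 and from 0.46 to 0.34. Of the Cep genes 20 were above 0 between VZ and lMZ under each scaling, and between mMZ and lMZ 21, 19 (trimmed mean) and 18 (quantile). Deviations from the zone means correlated at a median of 0.091 over 9 same-numbered pairs (-0.0984 to 0.249, 8 above 0 and 4 above 0.1) and of -0.026 over 18 other pairs (-0.247 to 0.231, 7 above 0). Not all same-numbered pairs were above 0.1, and VZ replicate 1 correlated best with mMZ replicate 2 (0.128), so the number is not taken as a pairing. With the replicate block 7, 0 and 1 Cep genes passed (VZ against lMZ, VZ against mMZ, mMZ against lMZ), and 2901, 0 and 703 of all genes. The lone call the block ended was Cep97 between VZ and lMZ (adjusted p = 0.0533, within 0.0213 to 0.134 over all settings). Genes at under about 10 implied fragments in a shallow library, such as Cep70 and Cep57l1, are limited by depth there. These include Cep95, Cep76 and Cep72, which passed between VZ and lMZ, at about 8.4, 8.8 and 9.8 fragments in VZ replicate 3. Each passed without both shallow libraries (limma adjusted p = 0.02055, 0.00487 and 0.02685).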
